A study of Homo sapiens with 82 samples.

Results

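In HT29 cells, a line from a human colorectal adenocarcinoma, 305 of the 51838 genes listed in the 48 h count table were higher with both LXR agonists and lower with rosiglitazone than in cells that received only the carrier, DMSO. The choice was made on CPM (each count divided by the total of its library and multiplied by 1000000), averaged over the 4 libraries of a group. A member had a mean at least 1.5 times that of DMSO with GW3965 and with T0901317, a mean at most 0.67 times that of DMSO with rosiglitazone, and a mean of at least 2 CPM in its highest group. These limits left 325 genes, of which 12 with symbols that start with SLC, CYP or ABC were set aside, and 8 more because both LXR agonists had already raised them at least 1.5-fold at 24 h. The members were therefore chosen on the 48 h values, and those values are given as a description without a test.

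The RNA-seq data hold 32 libraries, with 4 replicates of HT29 cells in each of 8 groups: the carrier DMSO alone, GW3965, T0901317 and rosiglitazone, each drug at 10 μM, and each group treated for either 24 or 48 h. All cells had been grown beforehand in medium without phenol red and with charcoal-treated serum. Each time point had its own count table and its own DMSO libraries. The labels do not say whether the replicates were separate cultures, so a p-value measures the spread between these libraries, which may be technical. In RNA from whole cultures, less RNA per cell and fewer cells that express a gene cannot be told apart.

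GW3965 and T0901317 are synthetic ligands of the liver X receptors LXRA and LXRB, nuclear receptors that sense oxysterols and, paired with RXR, switch on genes of sterol efflux and fatty acid synthesis. Rosiglitazone is a thiazolidinedione ligand of PPARG, another partner of RXR, which governs fat storage in adipocytes and is also expressed in the epithelium of the colon. Both kinds of receptor bind paired copies of the core motif AGGTCA, in the spacing known as DR1 for PPARG and DR4 for LXR.

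Library totals ran from 21044798 to 51332656 counts. The 12 epithelial markers of colon cells summed to between 16870 and 20793 CPM in the 48 h libraries, while 10 fibroblast and smooth muscle markers summed to at most 19.7 CPM and 7 endothelial markers to at most 71.8 CPM. The 10 leukocyte markers, of which 4 passed the filter for low counts, summed to between 407 and 818 CPM. They were highest with T0901317, from 739 to 818 CPM, against 482 to 511 CPM with DMSO. LYZ, one of the 10, is also on the list of goblet and mucus genes used below, so this sum is not particular to leukocytes. Its relation to the results on immune genes below was not tested. Of 18 reference targets of LXR and PPARG, 14 were called higher at 24 h with GW3965 (0.992% of all genes tested), 9 with T0901317 (0.689%) and 9 with rosiglitazone (1.81%). None of the 18 was a member, which follows in part from the rule. It leaves out symbols that start with ABC, genes that both LXR agonists raised at 24 h, and genes that rosiglitazone did not lower at 48 h. ABCA1, the sterol exporter that LXR switches on, had 3.25, 2.54, 1.94 and 2.20 CPM in the DMSO libraries of 48 h, 136, 122, 142 and 124 with GW3965 and 78.3, 85.9, 87.2 and 102 with T0901317.

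At 48 h, the ratio to DMSO over the 305 members ran from 1.504 to 4.214 with GW3965 (median 1.831), from 1.505 to 11.286 with T0901317 (median 2.04) and from 0.095 to 0.67 with rosiglitazone (median 0.494). Levels in DMSO spanned 0.251 to 361 CPM with a median of 5.416, and 103 members had at least 10 CPM. All 4 libraries with GW3965 lay above all 4 DMSO libraries in 293 members, against 19.9% of the 22470 genes tested at 48 h. The same held with T0901317 in 296 members (21.7% of the genes tested), and all 4 rosiglitazone libraries lay below DMSO in 247 members (29.1%). In 235 members all 3 separations held. These shares follow from how the members were chosen.

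Members near a limit show how it divides genes. TNFRSF14 passed with a T0901317 ratio of 1.5055, while FAM109A, at 1.4963, did not. AC073346.2 passed with a GW3965 ratio of 1.5037 and HOXA13 missed at 1.4995. LRRC45 passed with a rosiglitazone ratio of 0.6698 and AC004985.12 missed at 0.6715. PAPLN passed with a largest group mean of 2.0378 CPM and HPN missed at 1.9728 CPM. In 39 members, the rosiglitazone libraries of 48 h averaged under 20 counts.

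**Figure D1:**
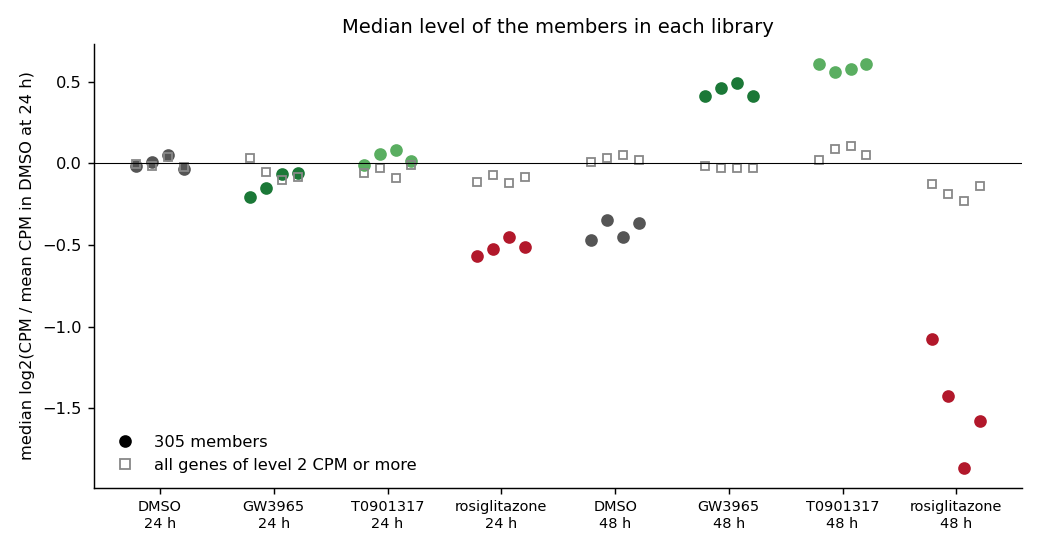
Median over the 305 members of log2(CPM in a library / mean CPM in DMSO at 24 h) for each of the 32 libraries (filled circles), beside the same median over 15251 genes with a group mean of at least 2 CPM at 48 h (open squares). Members sit between 0.41 and 0.61 with the LXR agonists at 48 h, between -0.57 and -0.45 with rosiglitazone at 24 h, and spread from -1.86 to -1.08 with rosiglitazone at 48 h.

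The rosiglitazone libraries of 48 h differed among themselves. The members' median ratio to the DMSO mean was 0.648, 0.496, 0.356 and 0.452 in replicates 1 to 4. Replicate 1 was the highest rosiglitazone library for 236 members and replicate 3 the lowest for 210. PLIN2, a lipid droplet coat protein and PPARG target that is not a member, had 93.8, 123, 196 and 153 CPM in the same libraries, with its lowest value in replicate 1 and its highest in replicate 3, against 7.53, 9.84, 8.71 and 9.53 CPM with DMSO. Without replicate 1 the rule chose 377 genes, 303 of them members, and without replicate 3 it chose 260, 258 of them members. The scaling used also bears on these values, since with factors from the TMM method (which equalizes the bulk of genes) in place of library totals the median log2 fold change of all genes with rosiglitazone at 48 h moved from -0.19 to -0.01. Chosen with such factors, 231 genes passed, 219 of them members.

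The rosiglitazone libraries of 24 h took no part in the choice of members, and the DMSO libraries of 24 h only in the removal of 8 genes, so rosiglitazone against DMSO at 24 h is the comparison that can be tested. Of the 305 members, all of which passed the filter for low counts, 78 were called lower (25.6%) and 0 were called higher, where a call needs an adjusted p under 0.01 in the quasi-likelihood test of edgeR and a change of at least 1.5-fold. Over all 21781 genes tested, 3.13% were called lower and 1.81% higher. These fold changes carry TMM factors, while printed CPM and the comparisons of single libraries use library totals. With library totals the median log2 fold change of all genes with rosiglitazone at 24 h was -0.11, against -0.02 with TMM. A ratio of printed CPM can therefore pass 1.5-fold where the fold change does not. At an unadjusted p of 0.05, without a limit on the fold, 201 members were lower and 5 were higher. With a 2-fold limit 34 members were called lower, against 1.4% of all genes, and with DESeq2 79 at 1.5-fold.

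The median log2 fold change of the members at 24 h was -0.46, with a range from -2.37 to 0.47, against -0.02 for all genes tested, and 275 members (90.2%) were below 0, against 52.9% of all. All 4 rosiglitazone libraries of 24 h lay below all 4 DMSO libraries in 197 members (64.6%), against 19.9% of the genes tested, and above them in 1 member, against 7.27%. The 4 rosiglitazone libraries were alike here, with median ratios to the DMSO mean of 0.665, 0.687, 0.722 and 0.694. Members of every level contributed: 11 of 70 members with under 2 CPM at 24 h were called lower, 38 of 109 with 2 to 10 CPM and 29 of 126 with more, against 2.59%, 6.38% and 2.03% of all genes tested in these ranges.

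**Figure D2:**
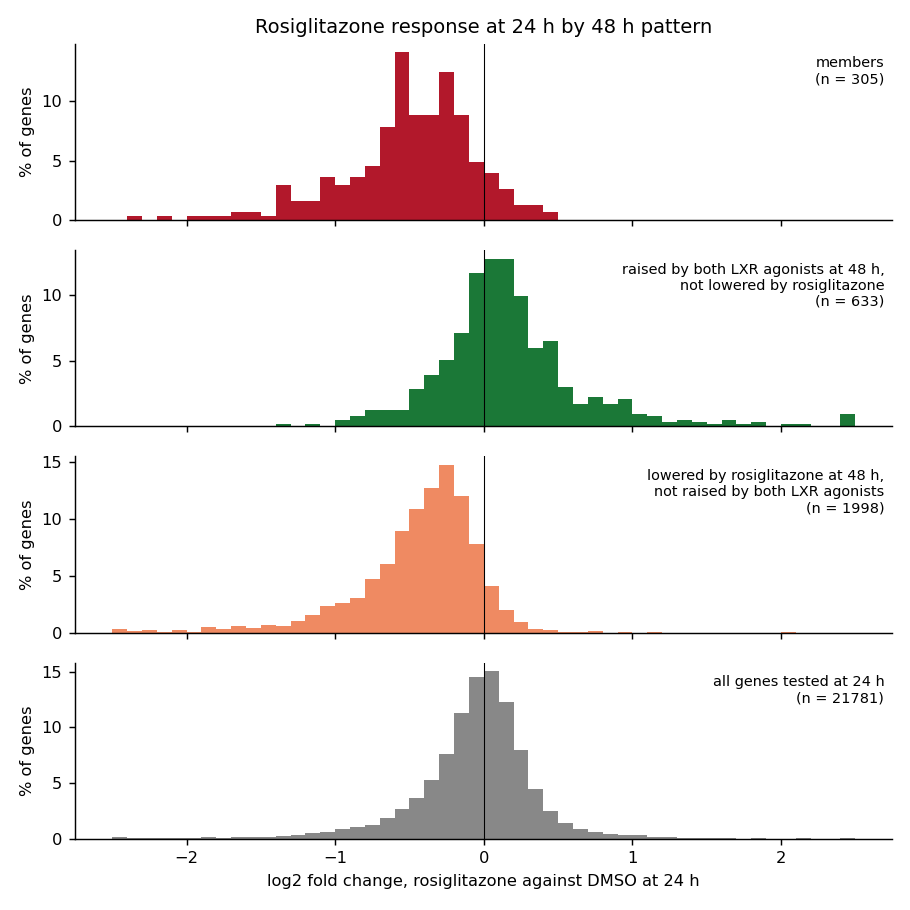
Log2 fold change of rosiglitazone against DMSO at 24 h (x axis) as a share of genes in each set (y axis, percent) for the members, for genes raised by both LXR agonists but not lowered by rosiglitazone at 48 h, for genes lowered by rosiglitazone but not raised by both LXR agonists at 48 h, and for all genes tested; values beyond the axis are drawn in the end bars. The medians are -0.46, 0.11, -0.36 and -0.02. The exclusions by symbol and by 24 h values were applied to the members only.

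To place these shares, the 48 h limits were split. Among 633 genes that both LXR agonists raised at least 1.5-fold at 48 h but rosiglitazone did not lower, 2.21% were called lower and 11.8% higher with rosiglitazone at 24 h. Among 1998 genes that rosiglitazone lowered at 48 h but the LXR agonists did not both raise, 21.1% were called lower and 0.1% higher. The members, at 25.6% and 0%, lay close to the latter set. No test was made of the differences between these sets, which are not matched for level. The exclusions of the rule were applied to the members only. Both other sets keep genes with symbols that start with SLC, CYP or ABC. They also keep genes that both LXR agonists had raised at least 1.5-fold at 24 h, so the shares are not like for like.

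Members called lower at 24 h had a median rosiglitazone ratio of 0.365 at 48 h, and the other 227 had one of 0.545. Their GW3965 ratios at 48 h were alike (1.779 and 1.841), as were their T0901317 ratios (1.972 and 2.041). At an adjusted p under 0.01 in the edgeR test, without a limit on the fold, 1 member was higher at 24 h. It was KLHL3, an adaptor of a ubiquitin ligase, named after its values were seen. KLHL3 had 5.89, 6.45, 7.06 and 6.47 CPM with DMSO and 8.10, 7.70, 8.75 and 8.91 with rosiglitazone at 24 h, a log2 fold change of 0.47 ± 0.10 (SE) with an adjusted p of 0.00251 that stayed under 1.5-fold, before 3.07, 3.19, 2.70 and 3.02 CPM with DMSO and 2.87, 1.31, 1.23 and 1.60 with rosiglitazone at 48 h, which overlapped.

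**Figure D3:**
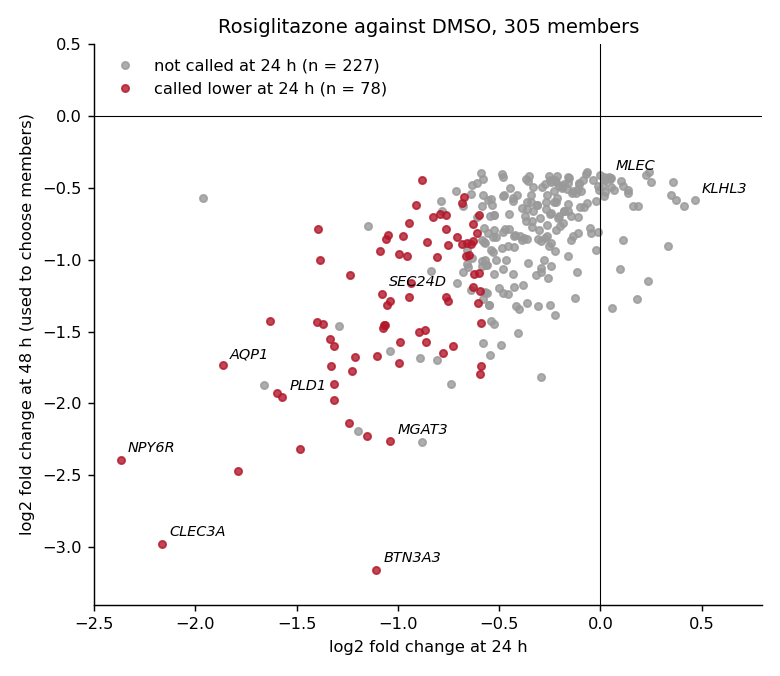
Log2 fold change of rosiglitazone against DMSO at 24 h (x axis) and at 48 h (y axis, the contrast that chose the members) for the 305 members; red points are the 78 called lower at 24 h. CLEC3A and NPY6R lie far down at both times, MLEC lies near 0 at 24 h, and KLHL3 is the point farthest to the right.

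The LXR agonists at 24 h, which the rule used to leave genes out, gave small values in the members. The median ratio to DMSO was 0.917 with GW3965 and 1.024 with T0901317, against 0.966 and 0.969 over genes of at least 2 CPM. A ratio of at least 1.5 was seen with GW3965 alone in 6 members and with T0901317 alone in 18, among them GABRP, CLEC3A, PTGS1 and TNFSF10. With TMM factors, the log2 fold change with GW3965 at 24 h was below 0 in 178 members (58.4%), against 51.7% of all genes tested. With T0901317 it was below 0 in 114 members (37.4%), against 51.1%.

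The members are described by their known roles below. These groups hold 109 members and were drawn up after the values had been seen, so their counts are a description. Their calls with rosiglitazone at 24 h are to be read beside 25.6% of all members and 3.13% of all genes tested called lower. The other 196 members, 34 members with clone-based names among them, are covered by the counts above.

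The 11 genes of the intestinal epithelium, mucus and tuft cells had median 48 h ratios to DMSO of 1.777 (GW3965), 2.033 (T0901317) and 0.442 (rosiglitazone), and 6 of them were called lower with rosiglitazone at 24 h. MUC20, a membrane mucin, had the lowest p of all members. It had 75.2, 73.8, 74.6 and 78.2 CPM with DMSO at 24 h and 32.6, 33.5, 33.4 and 36.4 CPM with rosiglitazone. The groups did not overlap, with a log2 fold change of -1.06 ± 0.06 (SE) and an adjusted p of 1.79e-10. At 48 h MUC20 had 60.9, 69.2, 50.8 and 58.6 CPM with DMSO, 95.0, 98.9, 98.9 and 100.02 with GW3965, 116, 110.4, 113 and 119 with T0901317 and 38.6, 30.4, 19.0 and 29.4 with rosiglitazone, so that the drugs lay on both sides of the carrier. With the LXR agonists at 24 h, in contrast, MUC20 lay below DMSO, at 55.4, 52.6, 55.6 and 56.4 CPM with GW3965, while T0901317 gave 65.3, 63.7, 66.8 and 60.9 CPM, also without overlap.

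VIL1 encodes villin, which bundles actin in the brush border. It had 188, 182, 175 and 173 CPM with DMSO and 118, 115, 123 and 114 with rosiglitazone at 24 h, without overlap. Its TMM-scaled log2 fold change of -0.52 ± 0.06 (SE) (adjusted p = 7.19e-06) stayed under the 1.5-fold limit, which the ratio of its mean CPM passed. At 48 h VIL1 had 147, 160.4, 154 and 143 CPM with DMSO, 234, 243, 258 and 231 with GW3965, 243, 248, 239 and 252 with T0901317 and 86.4, 71.0, 46.5 and 63.3 with rosiglitazone. TSPAN8, a tetraspanin of the epithelial surface, was similar in size, with a log2 fold change of -0.48 ± 0.08 (SE) at 24 h (adjusted p = 0.000191) and 48 h ratios of 1.58, 2.03 and 0.601 with GW3965, T0901317 and rosiglitazone. CDX1, a homeobox factor of the intestine, had a log2 fold change of -0.56 ± 0.16 (SE) with an adjusted p of 0.0176 at 24 h, which missed the threshold. VIL1, TSPAN8 and CDX1 belong to the 12 epithelial markers of colon cells, of which 0 were called lower and 1 higher with rosiglitazone at 24 h, with a median log2 fold change of 0.13, and 4 lower and 1 higher at 48 h, with a median of 0.07. The other markers include KRT20, a keratin of differentiated colon cells, which rose with rosiglitazone at 24 h (log2 fold change 1.38, adjusted p = 5.85e-13).

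BCAS1, a gene of goblet cells, fell at 24 h by a log2 fold change of -0.63 ± 0.07 (SE) (adjusted p = 2.38e-06). Its levels at 24 h were 35.1, 35.5, 40.2 and 33.0 CPM with DMSO and 19.6, 23.5, 22.9 and 21.3 CPM with rosiglitazone. TRPM5, the cation channel of taste and tuft cells, had 2.52, 2.56, 2.03 and 2.55 CPM with DMSO and 1.11, 0.952, 0.899 and 0.853 CPM with rosiglitazone, a log2 fold change of -1.24 ± 0.16 (SE) (adjusted p = 1.32e-05). Both genes showed no overlap between these groups at either time. BCAS1 went under the 1.5-fold limit on leaving out DMSO replicate 3 or rosiglitazone replicate 1 (log2 -0.58 in each). PTGS1, the constitutive cyclooxygenase, which tuft cells also express, had 4.05, 4.31, 3.45 and 4.17 CPM with DMSO and 7.89, 7.75, 8.41 and 8.19 CPM with T0901317 at 24 h. At 48 h PTGS1 had 6.33, 6.81, 6.17 and 7.39 CPM with DMSO and 26.99, 23.2, 24.2 and 28.0 CPM with T0901317, again apart. With rosiglitazone PTGS1 fell at 24 h, with a log2 fold change of -0.76 ± 0.15 (SE) (adjusted p = 0.000989). PDZD3, a PDZ scaffold of the apical membrane, had 48 h ratios of 3.30 with GW3965 and 3.14 with T0901317, but its rosiglitazone libraries overlapped DMSO at both times and its 24 h log2 fold change was -0.07 ± 0.18 (SE) (adjusted p = 0.847).

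**Figure D4:**
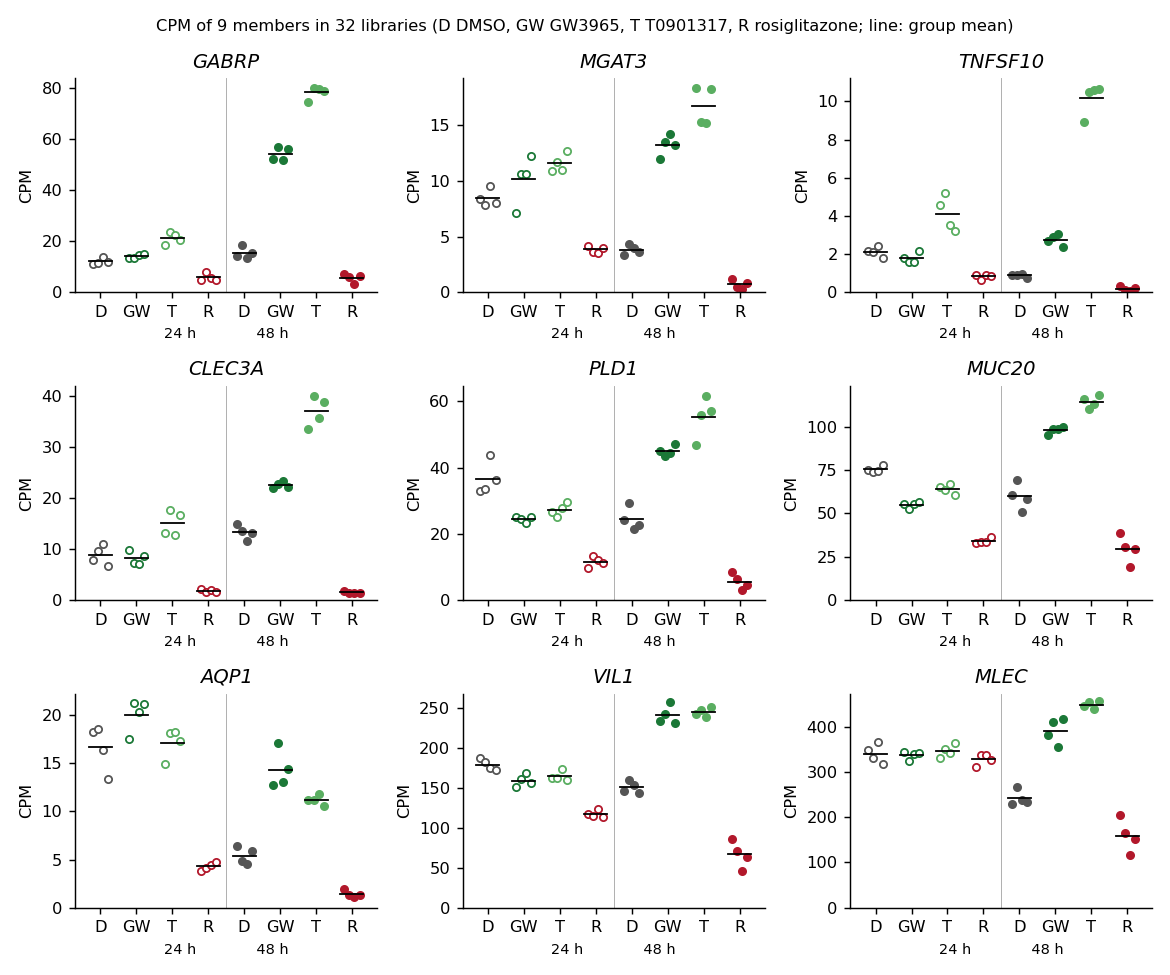
CPM of 9 members in all 32 libraries, with 1 point per library, open at 24 h and filled at 48 h, and a line at each group mean; all y axes start at 0. In all 9 the LXR agonists lie above and rosiglitazone below DMSO at 48 h, while at 24 h MLEC has overlapping values with DMSO and rosiglitazone.

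Enzymes that build glycans were 10 members, 4 of them called lower at 24 h. MGAT3, which adds the bisecting N-acetylglucosamine to N-glycans, had 3.34, 4.33, 4.02 and 3.63 CPM with DMSO at 48 h, 12.0, 13.5, 14.2 and 13.2 with GW3965, 18.3, 15.3, 15.2 and 18.2 with T0901317 and 1.18, 0.496, 0.309 and 0.846 with rosiglitazone. Every drug group was separate from DMSO, in ratios of 3.45, 4.37 and 0.185. At 24 h MGAT3 fell with rosiglitazone from 8.43, 7.82, 9.56 and 8.03 CPM to 4.19, 3.67, 3.54 and 4.03 CPM, a log2 fold change of -1.04 ± 0.14 (SE) (adjusted p = 2.52e-05). FUT2, the fucosyltransferase that makes H antigen in secretions, fell by nearly the same measure, with -1.04 ± 0.11 (SE) (adjusted p = 6.68e-07), and GALNT5, which starts mucin-type O-glycans, had -0.73 ± 0.16 (SE) (adjusted p = 0.00217), a call lost on leaving out rosiglitazone replicate 1 or 4 (adjusted p = 0.011 and 0.0106). CHST5, a sulfotransferase, was the other call.

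B3GNT1 (named B4GAT1 in the table of gene IDs), a glucuronyltransferase of the dystroglycan glycan, behaved in another way. It had 16.4, 16.7, 17.7 and 15.1 CPM with DMSO at 24 h and 4.10, 5.51, 4.15 and 5.19 CPM at 48 h. At 48 h it had 16.2, 16.1, 13.2 and 16.6 CPM with GW3965 and 17.2, 14.8, 15.3 and 16.9 CPM with T0901317, overlapping the 24 h DMSO libraries, and 2.68, 2.27, 1.26 and 1.66 CPM with rosiglitazone. Its rosiglitazone libraries of 24 h, at 13.2, 14.7, 14.6 and 14.7 CPM, gave a log2 fold change of -0.11 ± 0.11 (SE) (adjusted p = 0.53). DAG1, the dystroglycan gene itself, was a member with 48 h ratios of 1.52 (GW3965), 1.57 (T0901317) and 0.601 (rosiglitazone). ST6GALNAC2, a sialyltransferase, and B3GALT4, a galactosyltransferase of gangliosides, missed the threshold at 24 h with adjusted p of 0.0249 and 0.277.

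Of 15 immune receptors and interferon-linked genes, 6 were called lower with rosiglitazone at 24 h. TNFSF10 encodes the death ligand TRAIL. Its CPM at 48 h was 0.934, 0.928, 0.985 and 0.762 with DMSO, 2.67, 2.90, 3.05 and 2.40 with GW3965, 8.92, 10.5, 10.6 and 10.7 with T0901317 and 0.319, 0.117, 0.0475 and 0.242 with rosiglitazone. No other member had a higher T0901317 ratio than its 11.3, and all groups were apart. At 24 h TNFSF10 had 2.19, 2.11, 2.40 and 1.81 CPM with DMSO and 0.911, 0.672, 0.899 and 0.882 with rosiglitazone, a log2 fold change of -1.24 ± 0.19 (SE) (adjusted p = 6.49e-05).

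The butyrophilins BTN3A1, BTN3A2 and BTN3A3, a family linked to the response of gamma delta T cells to phosphoantigens, were all members. BTN3A3 had 1.84, 0.897, 1.40 and 1.85 CPM with DMSO at 48 h and 0.246, 0, 0.142 and 0.181 with rosiglitazone, where 1 library had no count, and its ratio of 0.0952 was the lowest of all members. With GW3965 the values were 1.42, 2.74, 2.20 and 2.73 CPM, which overlapped DMSO, and with T0901317 5.93, 5.34, 5.51 and 4.98 CPM, which did not. At 24 h BTN3A3 fell with rosiglitazone, by a log2 fold change of -1.11 ± 0.26 (SE) (adjusted p = 0.00414), a call that was lost on leaving out DMSO replicate 1 or 3 or rosiglitazone replicate 1, 2 or 4 (adjusted p from 0.0104 to 0.0185). BTN3A1, at -0.88 ± 0.25 (SE) (adjusted p = 0.016), and BTN3A2, at -0.53 ± 0.18 (SE) (adjusted p = 0.0392), missed the threshold. These 3 genes resemble one another, and how reads that fit more than 1 of them were counted is not given, so their single values are uncertain.

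TNFRSF14, a receptor for LIGHT and BTLA, was one of the most abundant members, at 173, 172, 159 and 177 CPM with DMSO and 99.6, 93.8, 128 and 108 with rosiglitazone at 24 h. The groups did not overlap, but the TMM-scaled log2 fold change of -0.57 ± 0.12 (SE) (adjusted p = 0.00173) stayed just under 1.5-fold. Its mean CPM by library totals, 170 with DMSO and 107 with rosiglitazone, lay past that limit. Chosen after their values were seen, HHLA2, a B7 family ligand, IL17RE, a receptor chain for IL-17C, and HFE, which controls iron uptake, fell at 24 h with log2 fold changes of -0.76 ± 0.10 (SE), -0.81 ± 0.09 (SE) and -0.68 ± 0.11 (SE). TRIM34 was the other call, but its reads may be shared with TRIM6-TRIM34, also a member.

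**Figure D5:**
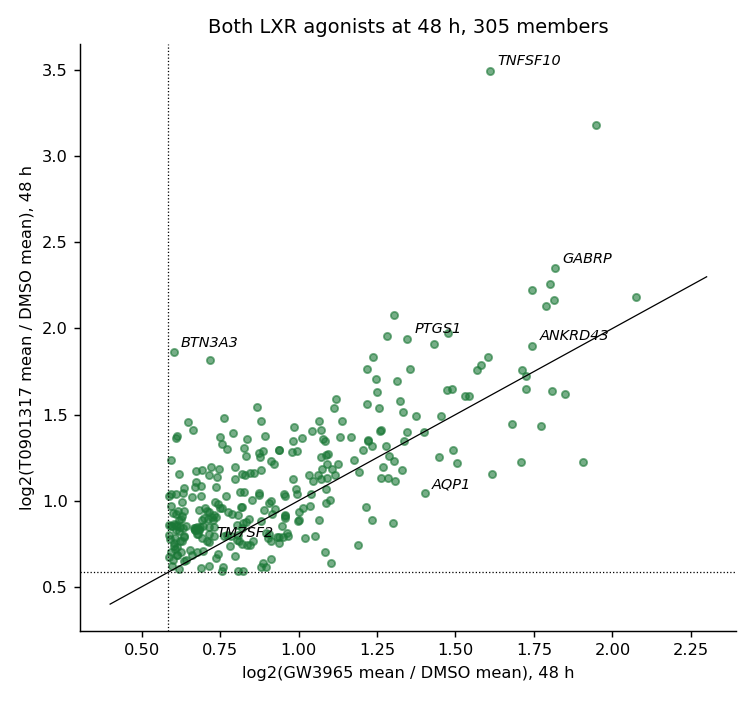
Log2 ratio to DMSO at 48 h with GW3965 (x axis) and with T0901317 (y axis) for the 305 members; the solid line marks equal ratios and the dotted lines the 1.5-fold limits of the rule. TNFSF10 and BTN3A3 lie well above the line and TM7SF2 close to it.

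GW3965 and T0901317, given at the same 10 μM, were compared over the members at 48 h. The T0901317 mean was above the GW3965 mean in 228 members (64.9% of genes of at least 2 CPM had the same order), with a median ratio of 1.108 against 1.07 over those genes. In 17 members T0901317 was at least 1.5-fold above GW3965, and in 1 member, FLVCR2, GW3965 was that far above T0901317. TNFSF10 led the former, at 3.70-fold, followed by BTN3A3 at 2.39-fold, FAM115D at 2.35-fold and BTN3A1 at 2.14-fold. Over the role groups, drawn up after the values had been seen, the median ratio ran from 1.071 to 1.411. The sterol and lipid enzymes had the lowest and the 15 immune members the highest, with 1.267 for the genes of the cell cycle and cell death next. The butyrophilins, whose reads may be shared, count as separate genes in the immune group. Both agonists chose the members, so these values carry no test.

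Sterol and lipid enzymes were 14 members with 4 called lower at 24 h. PLD1, phospholipase D1, which releases phosphatidic acid, had 33.0, 33.4, 43.8 and 36.2 CPM with DMSO at 24 h and 9.72, 13.2, 12.1 and 11.2 CPM with rosiglitazone. The distance was about 3-fold (ratio 0.316), with a log2 fold change of -1.57 ± 0.09 (SE) and an adjusted p of 2.51e-10. Both LXR agonists also left PLD1 below DMSO at 24 h, at 25.2, 24.4, 23.1 and 25.2 CPM with GW3965 and 26.5, 25.1, 27.9 and 29.6 CPM with T0901317. At 48 h they left it above, at 45.0, 43.5, 44.4 and 47.0 CPM with GW3965 and 46.7, 56.0, 61.6 and 56.9 CPM with T0901317, against 24.2, 29.3, 21.6 and 22.7 CPM with DMSO. TM7SF2, a sterol reductase of cholesterol synthesis, fell from 129, 129, 141 and 142 to 80.2, 82.0, 86.3 and 86.4 CPM at 24 h, by a log2 fold change of -0.60 ± 0.10 (SE) (adjusted p = 0.000137). This call was lost on leaving out DMSO replicate 4 or rosiglitazone replicate 1 or 2, where the fold change (log2 -0.56 to -0.58) went under the limit. DEGS2, a desaturase of sphingolipids, and MOGAT3, an acyltransferase of triglyceride synthesis, were the other two calls. IDI1 and SC4MOL (MSMO1), 2 other enzymes of the same pathway, named after their values were seen, missed the threshold at 24 h (adjusted p = 0.0313 and 0.185), with 48 h ratios of 0.645 and 0.616 with rosiglitazone.

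Channels and channel subunits were 9 members, 3 of them called lower at 24 h. GABRP, the pi subunit of GABA-A receptors, had 48 h ratios of 3.52 with GW3965 and 5.09 with T0901317, from 14.1, 18.5, 13.6 and 15.4 CPM with DMSO, 52.2, 56.9, 51.8 and 56.2 with GW3965 and 74.7, 80.1, 79.9 and 79.1 with T0901317 at 48 h. With rosiglitazone it had 7.30, 5.83, 3.44 and 6.35 CPM. The 4 groups did not overlap. At 24 h GABRP had 11.2, 11.6, 13.8 and 12.1 CPM with DMSO and 4.87, 8.14, 5.76 and 4.97 with rosiglitazone, a log2 fold change of -0.94 ± 0.13 (SE) (adjusted p = 2.66e-05). AQP1, a water channel, had 18.2, 18.6, 16.4 and 13.4 CPM with DMSO at 24 h and 3.84, 4.17, 4.41 and 4.73 with rosiglitazone, a log2 fold change of -1.86 ± 0.12 (SE) (adjusted p = 8.28e-10). In the DMSO libraries of 48 h AQP1 was already lower, at 6.42, 4.83, 4.48 and 5.92 CPM, and rosiglitazone gave 1.97, 1.31, 1.12 and 1.33 CPM there.

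Growth factors, receptors and their antagonists were 10 members with 3 calls. ERBB2, a receptor tyrosine kinase, was the most abundant of them. It had 236, 251, 229 and 242 CPM with DMSO and 218, 225, 233 and 207 with rosiglitazone at 24 h, which overlapped (log2 fold change -0.02 ± 0.11 (SE), adjusted p = 0.91). A day later ERBB2 had 191, 208, 184 and 199 CPM with DMSO, 319.9, 336, 354 and 327 with GW3965, 357, 324, 327 and 352 with T0901317 and 142, 125, 87.1 and 107 with rosiglitazone, all separate from DMSO. SOSTDC1, a secreted antagonist of BMP and Wnt signals, fell at 24 h from 8.28, 8.40, 8.63 and 7.57 to 2.78, 2.85, 2.76 and 3.29 CPM (log2 fold change -1.40 ± 0.10 (SE), adjusted p = 5.94e-09). FGF9, a growth factor, and SSTR1, a somatostatin receptor, both chosen after their values were seen, fell at 24 h with log2 fold changes of -1.31 ± 0.13 (SE) and -1.79 ± 0.19 (SE).

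Among 22 transcription regulators and HOX transcripts, 4 were called lower at 24 h. In DMSO, 18 of the 22 were lower at 48 h than at 24 h, against 71.1% of all members and 47.4% of genes of at least 2 CPM. MYB, a factor of intestinal progenitors, HOTAIR, a noncoding transcript of the HOXC cluster, MXD4, a partner of MAX, and ZNF618 were the ones called, chosen here after their values were seen, with log2 fold changes of -0.59 ± 0.06 (SE), -0.59 ± 0.11 (SE), -0.91 ± 0.12 (SE) and -1.33 ± 0.23 (SE). MYB had 44.6, 43.4, 49.6 and 40.5 CPM with DMSO at 24 h and 9.94, 12.5, 11.7 and 10.9 at 48 h. At 48 h MYB stood at 25.6, 28.6, 24.8 and 27.9 CPM with GW3965 and 38.8, 36.6, 38.4 and 32.8 CPM with T0901317. MYB-AS1, from its other strand, was also a member, and since the strand setting of the counting is not given, the reads of the pair cannot be told apart. CDCA7, a chromatin factor and Wnt target, had a log2 fold change of -0.29 ± 0.05 (SE) (adjusted p = 0.000112) at 24 h, under the limit.

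Matrix, adhesion and junction genes were 13 members with 3 calls. TGM2, a transglutaminase that cross-links matrix, was the most abundant member of all, at 391, 364, 339 and 349 CPM with DMSO, 543, 558, 547 and 557 with GW3965, 620.1, 575, 510.0 and 613 with T0901317 and 229, 215, 129 and 175 with rosiglitazone at 48 h. At 24 h its log2 fold change of -0.34 ± 0.09 (SE) narrowly missed the threshold (adjusted p = 0.0114). GJB1, a connexin of gap junctions, had -0.46 ± 0.08 (SE) (adjusted p = 0.000339) and stayed under 1.5-fold, and ROBO2, an axon guidance receptor with under 1.5 CPM at 24 h in DMSO, had -1.20 ± 0.40 (SE) (adjusted p = 0.0374). MMP14, a membrane metalloprotease chosen after its values were seen, had a log2 fold change of -1.07 ± 0.20 (SE) (adjusted p = 0.000557), and CELSR2, an adhesion receptor, and PLXNB3, a semaphorin receptor, were the other two calls. Of 5 genes of the cell cycle and cell death, 1 was called, TP53INP1, at -0.99 ± 0.19 (SE).

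Genes outside these groups included several with the lowest p. SEC24D, a cargo adaptor of COPII vesicles, had 29.9, 28.5, 26.4 and 26.8 CPM with DMSO at 24 h and 12.8, 12.6, 12.5 and 11.5 CPM with rosiglitazone. RAB26, a GTPase of secretory granules, had 13.3, 14.9, 14.7 and 13.5 CPM with DMSO and 6.25, 6.10, 6.75 and 6.35 CPM with rosiglitazone. CLEC3A, a C-type lectin, had 7.77, 9.60, 11.04 and 6.64 CPM with DMSO and 2.07, 1.62, 2.01 and 1.59 CPM with rosiglitazone. In all 3 genes the groups did not overlap, with log2 fold changes of -1.08 ± 0.06 (SE), -1.05 ± 0.08 (SE) and -2.16 ± 0.16 (SE) and adjusted p of 1.94e-10, 1.19e-08 and 9.61e-09. CLEC3A at 48 h ran from 1.84, 1.34, 1.38 and 1.36 CPM with rosiglitazone through 14.8, 13.6, 11.5 and 13.2 with DMSO to 33.5, 40.0, 35.6 and 38.9 with T0901317.

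NPY6R, a neuropeptide Y receptor locus that is a pseudogene in humans, had the strongest fall at 24 h, from 1.28, 1.82, 1.58 and 1.45 to 0.0985, 0.280, 0.480 and 0.265 CPM (log2 fold change -2.37 ± 0.30 (SE), adjusted p = 9.48e-06). IGSF10, SPEG (a muscle kinase) and CTTNBP2 (a cortactin-binding protein), with 48 h rosiglitazone ratios of 0.187, 0.226 and 0.175, also fell at 24 h, with log2 fold changes of -1.15 ± 0.11 (SE), -1.32 ± 0.21 (SE) and -1.48 ± 0.32 (SE). CTTNBP2 lost its call without DMSO replicate 3 (adjusted p = 0.0141). GATS and its relatives GATSL1, GATSL2 and GATSL3, all members, may also share reads. The reads of MUC20 and AC069213.1 (MUC20P1 in the table of gene IDs, a pseudogene of MUC20) may be shared, and the latter had -1.05 ± 0.06 (SE) at 24 h, almost the value of MUC20.

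MLEC, malectin, a lectin of the endoplasmic reticulum, and ATHL1 (PGGHG), a glucosidase of collagen sugars, were abundant members without a call. MLEC had 348, 330.1, 365 and 318 CPM with DMSO and 311, 338, 337 and 326 with rosiglitazone at 24 h, and 229.8, 267, 237 and 235 CPM with DMSO and 205, 164, 117 and 152 with rosiglitazone at 48 h. Its groups overlapped only at 24 h, where the log2 fold change was 0.04 ± 0.05 (SE) (adjusted p = 0.639), and it was -0.43 ± 0.14 (SE) for ATHL1 (adjusted p = 0.0369). ANKRD43 (SOWAHA) and CERCAM, over 3 times DMSO with both agonists at 48 h, had 0.05 ± 0.15 (SE) (adjusted p = 0.873) and -1.29 ± 0.38 (SE) (adjusted p = 0.0194). RP11-480I12.5 and RP11-480I12.6, which share a clone name, were also over 3 times DMSO with both agonists and had 24 h log2 fold changes of -0.30 ± 0.14 (SE) (adjusted p = 0.152) and -0.34 ± 0.17 (SE) (adjusted p = 0.162).

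Many members were lower in DMSO at 48 h than at 24 h. Because the DMSO libraries of 48 h are part of the rule, and because time, table and libraries cannot be told apart here, this is a description. The DMSO mean was lower at 48 h in 217 members (71.1%), against 47.4% of 15251 genes of at least 2 CPM, and at least 1.5-fold lower in 118 (38.7%), against 10.3%. All 4 DMSO libraries of 48 h lay below all 4 of 24 h in 154 members and above them in 34, against 22.8% and 25.1% of 21429 genes tested at both times. The genes raised by the LXR agonists but not lowered by rosiglitazone were lower in DMSO at 48 h in 82%, and those lowered by rosiglitazone but not raised by the agonists in 36.7%. Neither of these sets had the exclusions by symbol and by 24 h values.

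The 48 h libraries were also set against DMSO at 24 h. With GW3965, 163 members were within 1.5-fold of it, 133 were higher and 9 were lower, and with T0901317 the numbers were 147, 154 and 4. With rosiglitazone at 48 h, 271 members were at least 1.5-fold below DMSO at 24 h, 31 were within and 3 were above. These counts follow in part from the rule, which set the side of DMSO at 48 h on which each drug lay. The same counts were not made over all genes, so those of the members are a description. The median log2 ratio to DMSO at 24 h was taken per library over 15251 genes of at least 2 CPM. At 48 h it ran from -0.03 to -0.02 with GW3965, 0.02 to 0.10 with T0901317 and -0.23 to -0.13 with rosiglitazone. SKP2, a subunit of the ubiquitin ligase for p27, was chosen after its values were seen and is one of the 9 lower with GW3965. It had 63.9, 58.3, 63.3 and 57.1 CPM with DMSO at 24 h and 14.6, 20.5, 15.5 and 15.7 at 48 h. At 48 h SKP2 was at 38.8, 38.0, 36.4 and 41.0 CPM with GW3965 and 46.9, 52.4, 48.1 and 47.9 CPM with T0901317, all below the 24 h DMSO values and above the 48 h ones, and at 12.2, 7.84, 3.68 and 6.29 CPM with rosiglitazone.

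Gene lists drawn up for this tissue held few members, and their own counts were as follows for rosiglitazone against DMSO at 24 h, to be read beside 3.13% lower and 1.81% higher over all genes. Of 33 goblet and mucus genes, 13 were lower and 3 higher (median log2 fold change -0.44), with BCAS1 the 1 member. Of 17 enteroendocrine and tuft genes, 5 were lower and 0 higher (median -0.63), with TRPM5 and PTGS1 as members. Of 27 enterocyte genes, 2 were lower and 6 higher, with VIL1 and CDX1 as members, and of 24 stem cell and Wnt target genes 5 were lower and 1 higher, with CDCA7 as a member. In the goblet list lower calls outnumbered higher ones, and in the enterocyte list the reverse held, although its median was -0.26.

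Of 49 glycosyltransferase genes, 9 were lower and 3 higher, with FUT2, GALNT5, ST6GALNAC2 and B3GALT4 as members. Among 44 axon guidance genes, which include ROBO2, 4 were lower and 4 higher, among 35 cell junction genes, which include GJB1, 3 and 4, and among 50 genes of RAS, PI3K and growth factor receptor signaling, which include ERBB2, 3 and 2. The lists without a member gave 4 lower and 2 higher of 27 Notch pathway genes, 2 and 2 of 33 integrins, laminins and collagens, and 0 and 0 of both 16 histone genes and 21 antigen presentation genes. The 18 reference targets of LXR and PPARG gave 1 lower and 9 higher. At 48 h, 20 of 33 goblet and mucus genes were called lower and 2 higher with rosiglitazone, against 7.4% and 4.79% of all genes. With GW3965, 7 of them were called higher and 6 lower (8.27% and 7.78% of all genes), and with T0901317 5 were higher and 10 lower (6.99% and 7.28%), with a median log2 fold change of -0.17. Of 27 enterocyte genes, 13 were lower and 6 higher with rosiglitazone at 48 h, 6 were higher and 0 lower with GW3965, and 7 were higher and 0 lower with T0901317. The goblet list as a whole thus did not share the members' direction with the LXR agonists.

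Promoters of the members were read from RefSeq (GRCh38.p14), as 250 bases before and 50 bases after the start. Of the 305 members, 268 matched a RefSeq gene, 232 by symbol and 36 by an older symbol, 259 of them protein-coding, and 194 had a promoter in the table. The 4 shown are those of PLD1 and AQP1, which had some of the lowest p at 24 h, and of SPEG and CDCA7, which hold the core motif, with core motifs (AGGTCA or TGACCT) and GC boxes (GGGCGG or CCGCCC) in capitals. PLD1 is at chr3:171810434-171810733 on the minus strand, and AQP1 at chr7:30911603-30911902, SPEG at chr2:219434593-219434892 and CDCA7 at chr2:173354622-173354921 on the plus strand.
PLD1: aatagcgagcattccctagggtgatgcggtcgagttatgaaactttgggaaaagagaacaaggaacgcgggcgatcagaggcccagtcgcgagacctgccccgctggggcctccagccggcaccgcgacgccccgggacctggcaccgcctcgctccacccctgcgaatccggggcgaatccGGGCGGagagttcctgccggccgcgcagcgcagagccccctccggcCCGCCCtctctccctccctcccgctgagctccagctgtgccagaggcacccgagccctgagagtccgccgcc
AQP1: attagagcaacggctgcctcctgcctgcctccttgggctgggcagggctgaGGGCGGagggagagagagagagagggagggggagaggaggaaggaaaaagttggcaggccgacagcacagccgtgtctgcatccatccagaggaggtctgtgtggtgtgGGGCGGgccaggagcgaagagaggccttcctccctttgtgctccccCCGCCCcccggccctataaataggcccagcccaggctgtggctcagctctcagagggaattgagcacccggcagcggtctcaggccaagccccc
SPEG: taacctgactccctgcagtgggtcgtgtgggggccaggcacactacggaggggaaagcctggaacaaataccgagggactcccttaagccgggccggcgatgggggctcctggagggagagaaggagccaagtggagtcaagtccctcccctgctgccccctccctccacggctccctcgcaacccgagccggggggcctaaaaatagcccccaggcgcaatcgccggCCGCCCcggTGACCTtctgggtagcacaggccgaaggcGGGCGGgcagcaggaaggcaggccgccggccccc
CDCA7: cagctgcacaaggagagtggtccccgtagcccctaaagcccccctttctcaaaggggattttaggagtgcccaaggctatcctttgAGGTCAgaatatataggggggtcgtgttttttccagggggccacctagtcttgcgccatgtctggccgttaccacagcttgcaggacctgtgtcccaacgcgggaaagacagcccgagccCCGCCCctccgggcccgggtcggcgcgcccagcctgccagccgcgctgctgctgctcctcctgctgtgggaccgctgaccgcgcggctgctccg

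PLD1 holds 2 GC boxes and AQP1 holds 3, without a core motif in either window. The core motif of SPEG starts 13 bases before the start and that of CDCA7 164 bases before it. Over all 194 member promoters, on either strand, AGGTCA was in 23 (11.9%), against 13.8% of the 35116 promoters in the table and 10.4% of 13919 promoters of protein-coding genes of at least 2 CPM, so that the members lay between these backgrounds, and the paired forms DR1 and DR4 (direct repeats of AGGTCA with 1 and 4 bases between) were in 0, against 8 and 7 promoters of the whole table. The GC box was in 76.8% of member promoters, against 45% of all and 66.4% of the protein-coding genes. CCAAT was in 39.2%, against 34.6% of all and 34.8% of the protein-coding genes. The AP1 motif TGANTCA was in 4.6%, against 7.7% and 5.2%. The E-box CACGTG was in 8.2%, against 7.3% and 9.5%, and TATAAA in 6.7%, against 11.5% and 6.2%, so for both the direction of the difference turned with the background. Median GC content was 66.5% in members, 64.7% in the protein-coding genes and 58.7% in all promoters. These are counts of letters in a short window, and binding was not analysed here.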

How the data were processed

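RNA-seq of HT29 cells was analysed from the deposited counts, whole numbers per Ensembl gene in 1 table for each time point, which the authors made from aligned reads and analysed with DESeq. The submitters' processing notes name TopHat, Cufflinks and hg19 (the sources used here do not give the counting program, strand setting or annotation). The number of counts per library sets the precision.

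Groups were taken from the labels. CPM was the count divided by the library total. Fold changes and tests came from edgeR 4.0.16 (quasi-likelihood test, filterByExpr, TMM factors, R 4.3.3, limma 3.58.1), fitted on all 16 libraries of a time point, with Benjamini-Hochberg adjustment over all 21781 genes tested at 24 h or 22470 at 48 h. A call needed an adjusted p under 0.01 and a change of 1.5-fold. On simulated data with 200 of 21444 genes changed, 97.5% were recovered (96% of 2-fold and 99% of 3-fold changes) with 0 false calls. The changed genes were drawn only from those above a floor of counts, and no change was smaller than 2-fold. The recovery therefore does not apply to members of low level or to changes near the members' median log2 fold change of -0.46. DESeq2 1.42.0, other scalings, filters and fold limits, left-out libraries and a replicate block were alternatives.

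The members and gene lists were chosen with earlier results of these data known. Named genes were, among 250 members by mean level, those with the largest ratio with both LXR agonists, the lowest ratio with rosiglitazone, the highest level, the lowest p with rosiglitazone at 24 h, and members of the lists. Apart from the genes nearest each limit of the rule, any other gene named should be read as chosen after its values were seen. Not all of these carry that mark in the text. Peak files of ChIP-seq (hg19) were not used here, since the sequences used are of GRCh38.p14. Figures were drawn with matplotlib 3.10.9.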

Additional observations from a re-analysis of the deposited data

Results flagged for a closer look

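Among 336 groups of 4 libraries (42 named members in 8 groups), 16 had 1 library far from the other 3, with a gap above the critical value of Dixon's test. Chance flags about 1 in 20 groups, which would be 16.8 of them, so the number is no excess. Values are CPM. With rosiglitazone at 24 h, replicate 1 had 13.2 for B3GNT1 (others 14.6 to 14.7), replicate 2 had 0.672 for TNFSF10 (0.882 to 0.911) and replicate 4 had 0.265 for CTTNBP2 (0.6997 to 0.7386). With rosiglitazone at 48 h, replicate 1 had 1.84 for CLEC3A (1.34 to 1.38). With GW3965 at 24 h, replicate 2 had 2.20 for BTN3A3 (0.935 to 1.07) and replicate 1 had 169.7 for TSPAN8 (137 to 141), and at 48 h replicate 3 had 13.2 for B3GNT1 (16.1 to 16.6). With T0901317 at 24 h, replicate 1 had 0.643 for CTTNBP2 (1.57 to 1.76) and replicate 3 had 254 for ATHL1 (206 to 207), and at 48 h replicate 1 had 8.92 for TNFSF10 (10.5 to 10.7). In DMSO at 48 h, replicate 3 had 15.6 for RAB26 (14.2 to 14.4). Further such libraries were replicate 3 of DMSO at 24 h with 2.03 for TRPM5 (2.52 to 2.56), replicate 3 of rosiglitazone at 24 h with 1.89 for GALNT5 (1.15 to 1.26), and in GW3965 replicate 3 at 24 h with 0.994 for ROBO2 (1.23 to 1.28), replicate 1 at 24 h with 2.39 for CDX1 (3.78 to 3.86) and replicate 1 at 48 h with 86.7 for CDCA7 (92.8 to 93.5).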

How the results depend on the processing

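The 78 members called lower with rosiglitazone at 24 h became 34 with a 2-fold limit and 22 with a test against the 1.5-fold limit (glmTreat). Other settings gave 79 with DESeq2, 105 with library totals, 73 with the RLE method, 76 without the filter, 114 without a fold limit and 69 to 81 on leaving out 1 library. Without a fold limit 1 member was called higher. Fold limits of 2 and 0.5 at 48 h chose 56 members, and leaving out 1 library chose 260 to 377. With library totals the median log2 fold change was 0.0306 with T0901317 at 24 h (0.08 with TMM), 0.87 with GW3965 at 48 h (0.92) and 1.03 with T0901317 at 48 h (0.99). In alternatives chosen after seeing the data, 76 of 231 genes chosen with TMM factors were called lower. Of 210 genes that also passed edgeR in all 3 contrasts of 48 h, by a limit not given here, 70 were called lower. Same-numbered replicates correlated between -0.407 and 0.487, and the main fit did not pair them. At 24 h the replicate 3 libraries of the drugs correlated with one another (0.24 to 0.487) and negatively with DMSO replicate 3 (-0.407 to -0.198). Whether libraries of the same number shared a batch was not tested. With the replicate block 78 members were called lower, 76 of them shared.

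Of 588 values over 42 named members, 557 kept direction and call, 13 lost the call, 11 gained it and 7 changed sign. This tally leaves out the 2-fold limit and the test against the 1.5-fold limit, which gave fewer calls. ANKRD43 went to -0.0486 with library totals and -0.0065 without DMSO replicate 1 (range on leaving out 1 library to 0.1115), PDZD3 to 0.0156 without DMSO replicate 3 and 0.006 without rosiglitazone replicate 2 (range from -0.1939), MLEC to -0.0537 with library totals, and ERBB2 to 0.005 without DMSO replicate 2 and 0.0078 without rosiglitazone replicate 4 (range from -0.0554; all log2, 24 h). The cause was not tested. Sites near member starts were not run.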
